A study of Mus musculus with 6 samples.

Results

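The baseline transcriptome of mouse cardiac fibroblasts in culture was described from the 3 saline-treated control libraries of a series of 6. A gene was included where its mean over these 3 libraries was at least 1 TPM (the transcript abundance unit in which reads are divided by transcript length and scaled to a constant sum per library), and 12254 of 18059 listed genes, or 67.9%, met that level. The series holds RNA sequencing profiles of primary cardiac fibroblasts given saline or the growth factor dimer PDGF-DD for 12 hours, with 3 libraries of each. The PDGF-DD libraries are not described here and no contrast with them was made. Hearts of C57BL/6 mice aged 1 to 2 weeks were digested and passed through a filter, and the released cells were grown in DMEM medium with 15% fetal bovine serum and 1% penicillin and streptomycin. The labels state no sort, passage number or sex, and they do not say whether the 3 libraries are of different cultures or animals, so the spread between them may be technical. The labels record the genotype of these libraries as control, whereas the growth protocol names mice with a global knockout of PDGF-D as the source of the cells in every library. Pdgfd, which encodes the PDGF-D chain, was listed at 3.91, 4.13 and 3.16 TPM in control replicates 1, 2 and 3, from 118, 114 and 91 estimated counts. These are counts over the whole gene and do not check a deleted part of it.

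Cardiac fibroblasts are the connective tissue cells of the heart. They descend mainly from the epicardium, secrete and turn over the collagen-rich matrix between the muscle cells, and are recognised by genes such as Col1a1, Pdgfra and the transcription factor gene Tcf21. On stiff plastic and in serum they are known to take on features of myofibroblasts, contractile and matrix-secreting cells marked by the smooth muscle actin gene Acta2.

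Depth was nearly equal, at 21258480, 21302214 and 21265584 estimated counts in replicates 1, 2 and 3, and between 15984 and 16026 genes had a count above 0. The 3 libraries correlated across the included genes with Pearson's r between 0.996 and 0.997 for log2(TPM + 1). This correlation is across genes, which are not independent replicates. Control replicate 1 stood apart in 1 respect. Its short transcripts lay higher and its long transcripts lower than in the other libraries. For 107 genes with an effective transcript length of up to 500 bases, the median log2 ratio of TPM in replicate 1 over the mean of the other 2 was 0.22, and for 2053 genes over 5000 bases it was -0.14. The share of genes higher in replicate 1 went from 96.3% in the shortest class to 5.89% in the longest. The shares of ribosomal proteins, oxidative phosphorylation subunits, matrix glycoproteins and collagens, whose transcripts are short or long, are therefore given with and without replicate 1 below. Values of single genes are over all 3 libraries, and the cause of the pattern was not tested.

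**Figure D1:**
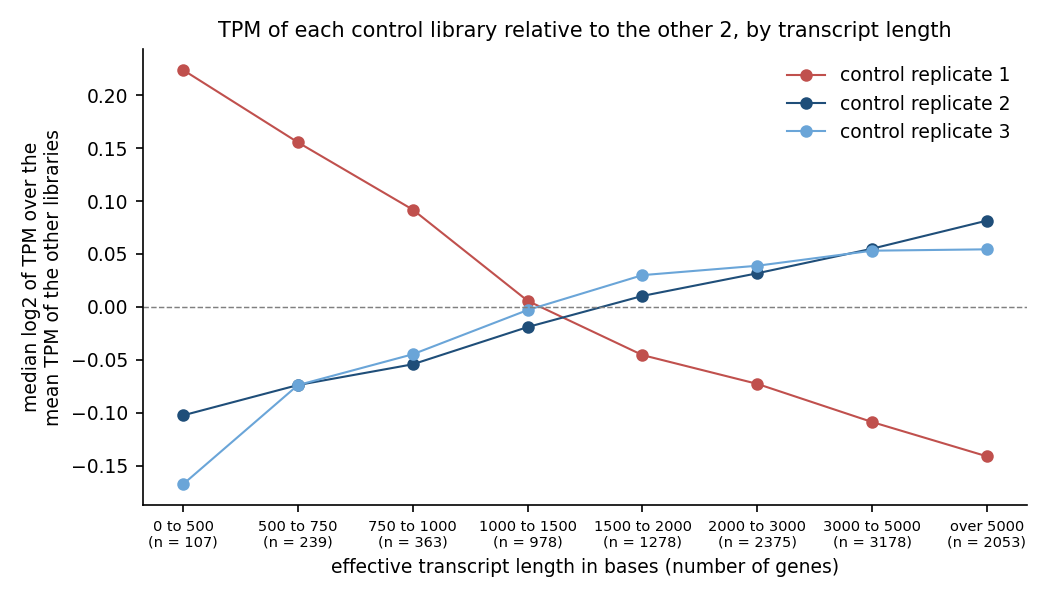
Median log2 ratio of the TPM in each control library over the mean of the other 2 (vertical axis), for included genes with at least 100 mean counts grouped by effective transcript length in bases (horizontal axis, number of genes in parentheses). The line of replicate 1 falls from 0.22 to -0.14 from the shortest to the longest genes, while the lines of replicates 2 and 3 rise together.

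Transcripts for protein synthesis, the cytoskeleton and the extracellular matrix filled the top of the abundance order. Eef1a1, the elongation factor that brings aminoacyl-tRNA to the ribosome, was the most abundant gene at 10206, 10547 and 10539 TPM. Sparc, which encodes a matricellular glycoprotein that binds collagen, followed at 8364, 9085 and 9006 TPM, and the main chain of type I collagen, Col1a1, at 7595, 8337 and 8282 TPM. Acta2 was in place 4 with 6202, 6291 and 6300 TPM. The proteoglycan gene Bgn (6021 ± 362 TPM, SD, n = 3, as for all values written this way below), the galectin gene Lgals1 (5634 ± 687 TPM), the ribosomal stalk gene Rplp1 (5613 ± 718 TPM), the cytoplasmic actin gene Actg1 (5409 ± 146 TPM), the fibronectin gene Fn1 (5223 ± 463 TPM) and Tpt1 (5188 ± 137 TPM) completed the first 10. The order within this group depended on the library: Lgals1 and Rplp1 lay above Bgn in replicate 1, at 6409 and 6417 against 5615 TPM, and below it in replicates 2 and 3.

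The 10 most abundant genes held 6.67% ± 0.0685 of the summed TPM and the 100 most abundant 29.7% ± 0.706. The first 381 genes held 50% of it. At the other end, 1033 listed genes were at 0 in all 3 libraries and 4772 lay above 0 but below 1 TPM. The median included gene had 21.1 TPM, 8496 genes reached 10 TPM, 1717 reached 100 TPM and 156 reached 1000 TPM. The first 100 genes of the 3 libraries had 91 genes in common, and 46 of the first 100 by mean TPM were also among the first 100 by estimated counts, which are not divided by length.

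Every library was at 1 TPM or more for 12005 included genes, and 249 reached it in some libraries only. Just inside the level were Ctf1 (1.02, 1.07 and 0.91 TPM), Gjc3 (0.80, 1.08 and 1.12 TPM) and the smooth muscle co-activator gene Myocd (0.73, 1.06 and 1.21 TPM). Just outside were the receptor gene Erbb3 (0.98, 0.87 and 1.14 TPM), Lyve1 (1.02, 0.86 and 1.11 TPM) and Gltpd2 (1.08, 0.76 and 1.14 TPM). Values near 1 TPM rested on a median of 23 counts, and 0 counts in a library allow up to 3 counts, or 0.141 CPM (the count scaled to the same total), by counting error alone.

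**Figure D2:**
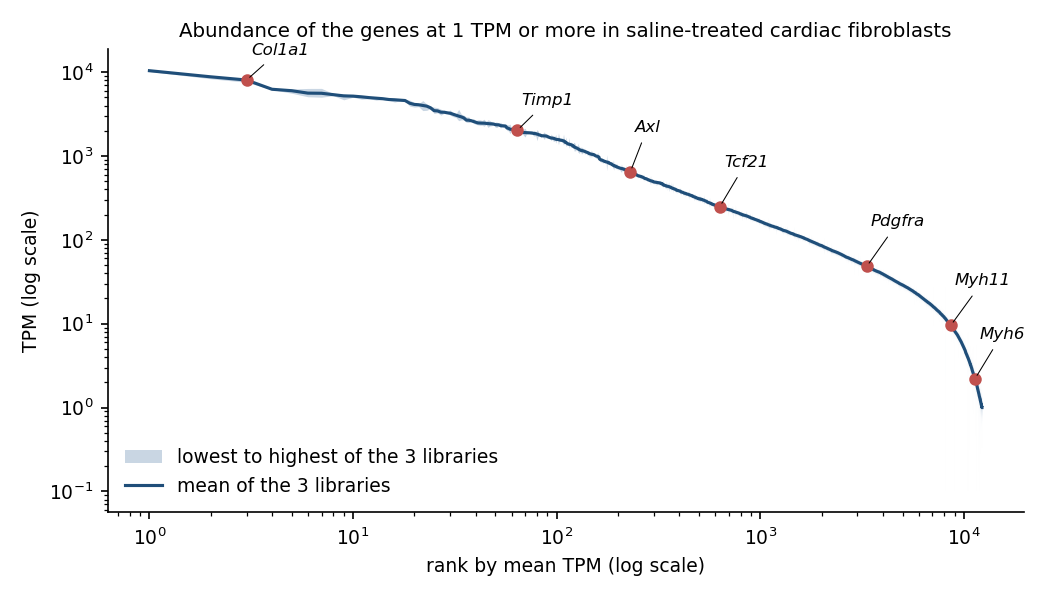
Mean TPM of each included gene against its rank, both on log scales, with the band from the lowest to the highest of the 3 control libraries. Named genes run from Col1a1, with a mean of 8071 TPM, through Tcf21 at 248 TPM to the cardiac myosin gene Myh6 at 2.197 TPM.

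Ribosomal protein genes formed the largest of 9 functional classes by TPM. The 87 listed genes for cytosolic ribosomal proteins held 16.2%, 14.3% and 14.05% of the summed TPM in replicates 1, 2 and 3, or 14.8% ± 1.16, and 14.2% without replicate 1. Of these 87, 66 lay above 1000 TPM and the median was 1640 TPM. Rplp1, Rps2 (4728 ± 213 TPM) and Rpl41 (4263 ± 359 TPM) led the class. The 6 entries below 100 TPM were the ribosomal protein-like genes Rpl7l1, Rpl39l, Rpl32l, Rpl3l and Rpl10l and, unlike these, the gene of a core subunit, Rps6, at 46.4, 44.1 and 43.0 TPM.

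Rps6 has a near-identical copy in the tables, the pseudogene entry Rps6-ps4, which was listed at 2810, 2465 and 2491 TPM and stood in place 39 of all genes. Together the 2 entries summed to 2856, 2509 and 2534 TPM, and Rps6-ps4 held 98.3% of that. Reads of such copies can be assigned to either entry, so each value alone is uncertain. The Rpl34 gene and Rpl34-ps1 had nearly equal shares in every library, with 50.6%, 50.5% and 50.6% in Rpl34-ps1, and Rpl31 held 65.9% ± 0.777 of its sum with Rpl31-ps12. The 3 pseudogene entries of ribosomal proteins added 0.384% to the share of the class.

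The actin cytoskeleton class (45 genes) came next at 5.38% ± 0.0392 of the summed TPM, followed by matrix glycoproteins and proteoglycans at 4.89% ± 0.242 (58 genes), translation factors at 3.33% ± 0.0188 (39 genes) and collagen chains at 2.80% ± 0.147 (44 genes). Nuclear-encoded subunits of oxidative phosphorylation held 1.95% ± 0.131 (86 genes) and 1.88% without replicate 1, where their share was 2.10%. Glycolytic enzymes held 1.23% ± 0.0250 (17 genes), collagen processing enzymes 0.815% ± 0.0228 (19 genes) and chaperones of the endoplasmic reticulum 0.673% ± 0.0188 (15 genes). Counted as reads and not per length, the long collagen chains held 7.26% of a library and the short ribosomal proteins 4.58%. Without replicate 1 the matrix glycoproteins held 5.03% and the collagens 2.89%, both above their value in replicate 1 (4.62% and 2.63%).

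**Figure D3:**
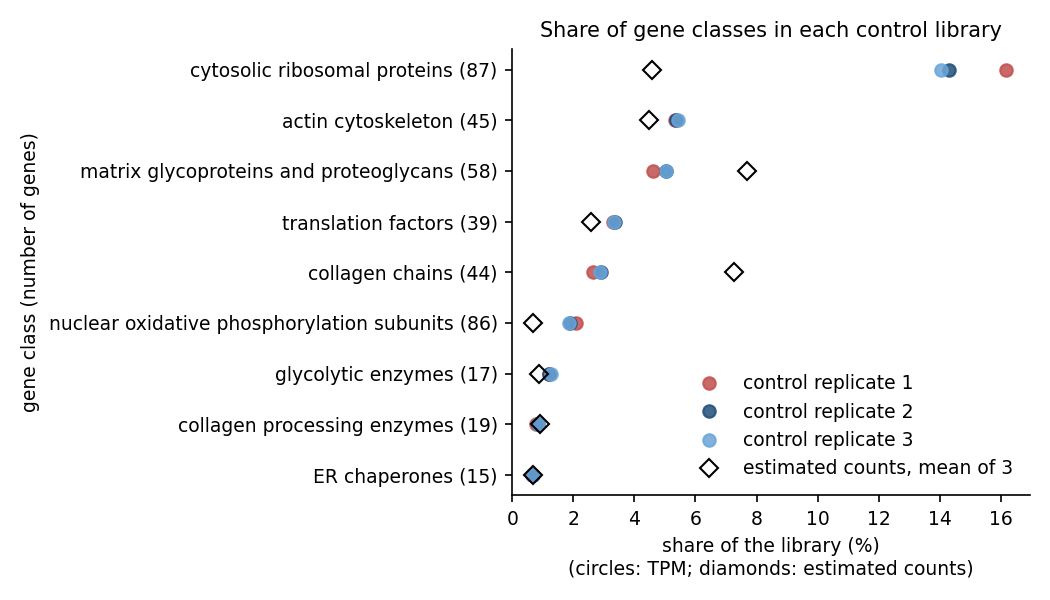
Share of each gene class in the control libraries, in percent of the summed TPM (circles, 1 per library) and of the estimated counts (diamonds, mean of 3). Ribosomal proteins lead by TPM, at 14.05% to 16.2%, and matrix glycoproteins and collagens lead by counts, at 7.70% and 7.26%.

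Collagen transcripts were concentrated in a few fibrillar chains. Of 44 collagen chain genes, 25 reached 1 TPM, a smaller share than the 67.9% of all listed genes, and the median chain had 3.62 TPM. At the upper end 16 reached 100 TPM, and the first 3, Col1a1, Col1a2 and Col3a1, held 63.7% of the collagen TPM. Col1a2, the second chain of type I collagen, had 4769, 5255 and 5246 TPM and Col3a1, the single chain of type III collagen, 4413, 4824 and 4846 TPM. The Col1a1 to Col1a2 ratio was 1.59, 1.59 and 1.58 in the 3 libraries, although both genes were lowest in replicate 1.

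The network collagens of basement membranes followed. Col4a1 had 3152 ± 176 TPM and Col4a2 1850 ± 99.1 TPM, a ratio of 1.70 ± 0.0216, while Col4a5 had 204 ± 10.7 TPM and Col4a6 16.8 ± 0.794 TPM. The chains Col4a3 (0.663 ± 0.0493 TPM) and Col4a4 (0.797 ± 0.150 TPM), which pair with Col4a5 in kidney glomeruli, lay below 1 TPM. Type V collagen, which starts fibrils, was present as Col5a2 (1751 ± 89.2 TPM), Col5a1 (895 ± 52.0 TPM) and Col5a3 (34.7 ± 1.73 TPM). Col11a1, a chain best known from cartilage, had 234 ± 12.4 TPM, whereas its cartilage partners Col2a1 (0.430 ± 0.195 TPM) and Col11a2 (0.710 ± 0.122 TPM) did not reach 1 TPM.

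Among the other chains, Col8a1 had 446 ± 22.2 TPM, the fibril-associated Col14a1 364 ± 20.8 TPM and Col12a1 304 ± 17.5 TPM. Type VI collagen, the microfibril-forming type, was unequal between its chains: Col6a1 had 272 ± 16.1 TPM, Col6a2 234 ± 16.2 TPM and Col6a3 94.6 ± 5.56 TPM, and the later-found chains Col6a4, Col6a5 and Col6a6 were each below 0.1 TPM. Col16a1 (124 ± 4.27 TPM), Col15a1 (111 ± 7.79 TPM) and Col18a1 (50.7 ± 3.49 TPM) came before Col7a1 (6.49 ± 0.341 TPM), Col27a1 (3.64 ± 0.0700 TPM), Col28a1 (3.61 ± 0.743 TPM), Col20a1 (3.26 ± 0.259 TPM) and Col26a1 (1.31 ± 0.0656 TPM).

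All 19 genes of collagen processing reached 1 TPM. Serpinh1, the collagen-specific chaperone HSP47, led at 3244, 3401 and 3362 TPM. P4hb, a subunit of prolyl 4-hydroxylase and also protein disulfide isomerase, had 1128 ± 46.4 TPM, and its catalytic partners had 259 ± 4.27 TPM (P4ha1), 77.4 ± 3.67 TPM (P4ha2) and 27.9 ± 1.79 TPM (P4ha3). Among the lysyl hydroxylases Plod2 (306 ± 12.0 TPM) lay above Plod3 (249 ± 8.78 TPM) and Plod1 (102 ± 5.20 TPM), with no overlap between libraries. Of the lysyl oxidases, which cross-link collagen and elastin, Lox had 1630 ± 108 TPM, Loxl2 1002 ± 64.2 TPM and Loxl1 819 ± 63.9 TPM.

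Besides Sparc, Bgn and Fn1, the matrix glycoprotein class was led by Igfbp7 (3769 ± 140 TPM), the fibulin gene Fbln2 (3077 ± 162 TPM) and Ccn2 (2531 ± 129 TPM), which encodes the connective tissue growth factor. The 57 of its 58 genes at 1 TPM or more had elastin (Eln, 720 ± 33.1 TPM) and fibrillin 1 (Fbn1, 712 ± 51.3 TPM) at like levels. Of the tissue inhibitors of metalloproteinases, Timp1 had 2028 ± 162 TPM, Timp2 981 ± 46.6 TPM and Timp3 488 ± 41.8 TPM, and Timp4 was at 0 in every library.

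Most genes that mark fibroblasts were high. Of 24 fibroblast markers, 23 reached 1 TPM, 21 reached 10 TPM and 16 reached 100 TPM, and their summed TPM was 40004, 42587 and 42153. Over all listed genes 67.9% reached 1 TPM, the share to set beside each such count for a list below. Below the median included gene were Islr (16.6 ± 1.09 TPM), Fap, an activation marker (9.53 ± 0.642 TPM), and Ly6a (5.98 ± 0.148 TPM), and Pi16, a marker of an adventitial fibroblast state, was below 1 TPM at 0.71, 0.85 and 0.94 TPM. Of the fibroblast markers, Tcf21 had 240, 261 and 243 TPM. Pdgfrb, the beta receptor for PDGF, had 322, 365 and 369 TPM, and Pdgfra, the alpha receptor, 43.5, 50.5 and 50.6 TPM. Pdgfrb was thus 7.31 ± 0.0824 times as abundant as Pdgfra, and the ranges did not overlap. Postn, a matricellular gene of activated fibroblasts, had 2039 ± 127 TPM and Thy1 411 ± 16.5 TPM. The 5 genes that the label of cardiac fibroblasts was checked against (Col1a1, Fn1, Acta2, Pdgfrb and Tcf21) all lay far above the 21.1 TPM of the median included gene. Not all of them are particular to fibroblasts, as smooth muscle shares Acta2 and pericytes share Pdgfrb, so these levels alone do not establish the cell type.

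Myofibroblast genes were high as well. Of 12, 10 reached 1 TPM and 9 reached 100 TPM. After Acta2 came Tagln, which encodes the actin-binding protein SM22, at 2661, 2596 and 2671 TPM, then Ccn2, Postn, Lox and the alpha-actinin gene Actn1 (1104 ± 64.3 TPM). Comp (0.407 ± 0.0757 TPM) and Lrrc15 (0.110 ± 0.0265 TPM), which mark late or pathological matrix-producing states, stayed below 1 TPM. Of 12 genes of differentiated smooth muscle, 10 reached 1 TPM and 6 reached 10 TPM, all far lower than Acta2 and Tagln, which that cell type shares. The smoothelin gene Smtn led at 98.0, 111 and 113 TPM, before Actg2, an actin gene of enteric smooth muscle (64.1 ± 1.93 TPM), the calponin gene Cnn1 (62.3 ± 3.29 TPM) and the leiomodin gene Lmod1 (36.0 ± 4.12 TPM). The heavy chain gene Myh11 was at 8.67, 9.76 and 10.2 TPM, desmin (Des) at 4.19 ± 0.134 TPM, and Ntsr1 and Sost were at 0 in all libraries.

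Markers of other heart cells were present at low levels, and in bulk RNA fewer cells of a type and less RNA per cell cannot be told apart. All 12 endothelial markers reached 1 TPM and their sum was 235, 251 and 261 TPM. Cdh5, which encodes VE-cadherin, led at 51.0, 56.4 and 58.1 TPM, and Vwf was lowest at 1.35 ± 0.0252 TPM. Of 16 macrophage markers, 13 reached 1 TPM, with a sum between 523 and 540 TPM. The lysozyme gene Lyz2, at 329, 302 and 315 TPM, made up 59.5% of that sum and has a close paralog. The complement gene C1qc had 32.9 ± 3.05 TPM, the receptor gene Csf1r 7.52 ± 0.244 TPM and the pan-leukocyte gene Ptprc 1.59 ± 0.142 TPM. The part of such cells in the levels given here was not tested.

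Epicardial markers were found in 11 of 12 cases, led by Aldh1a2, an enzyme of retinoic acid synthesis (51.0 ± 1.47 TPM), and Tbx18 (36.9 ± 1.08 TPM), with a sum between 168 and 184 TPM. The mesothelial gene Msln had 17.6 ± 1.07 TPM and Wt1 2.64 ± 0.469 TPM. Pericyte markers were split. Mcam (87.3 ± 3.48 TPM), Notch3 (48.3 ± 2.83 TPM) and Cspg4 (30.9 ± 2.36 TPM) were clearly present, whereas Kcnj8 (0.307 ± 0.130 TPM) and Abcc9 (0.643 ± 0.0839 TPM), which encode the potassium channel subunits used to define pericytes, were below 1 TPM, and 6 of 12 in all reached that level.

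Cardiomyocyte genes were unequal. Of 20, 11 reached 1 TPM, but Tnnt2, the cardiac troponin T gene, at 308, 327 and 306 TPM, made up 87.3% of the summed level of 348 to 372 TPM. The atrial light chain gene Myl4 had 22.9 ± 0.123 TPM, the cardiac actin gene Actc1 6.53 ± 1.73 TPM, Myh6 2.197 ± 0.0709 TPM, the troponin I gene Tnni3 1.13 ± 0.506 TPM, Ttn 0.0300 TPM in each library, and Ckm, the muscle creatine kinase gene, was at 0. Tnnt2 was 143 ± 9.77 times as abundant as Myh6, and its effective length of 1133 to 1139 bases lay within the 1112 to 1200 bases of its annotated transcripts.

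Glial markers had 8 of 10 at 1 TPM or more, of which the broadly expressed Pmp22 (524 ± 14.6 TPM) held 92.5% of the sum. Sox10, the defining factor of that lineage, was at 2.74, 3.29 and 3.66 TPM. Fat cell markers were limited to Fabp4 (63.2 ± 0.991 TPM, also a gene of capillary endothelium), Pparg (4.92 ± 1.19 TPM) and Plin4 (1.51 ± 0.0737 TPM), with Cfd at 0. Of the skeletal markers Sox9 had 54.5 ± 2.35 TPM, Runx2 8.42 ± 0.563 TPM and Dmp1 was at 0. No lymphocyte marker of 8 and no erythroid marker of 8 reached 1 TPM. Cd3e, Cd79b and Ms4a1 were at 0 in all 3 libraries, as were the globin genes Hbb-b1, Hbb-b2 and Hbb-bt and the red cell membrane gene Slc4a1.

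**Figure D4:**
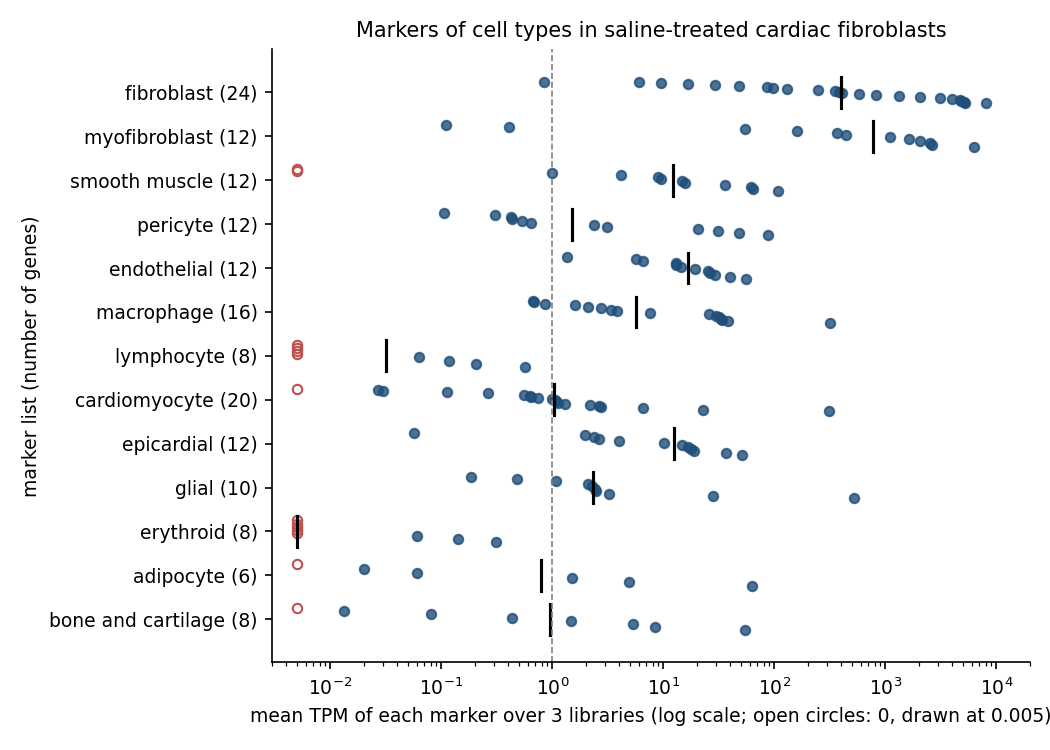
Mean TPM over the 3 control libraries (log scale) of each marker in 13 cell type lists, with the median of each list as a vertical bar, the level of 1 TPM as a dashed line, and markers at 0 as open circles. The medians of the fibroblast (398 TPM) and myofibroblast (775 TPM) lists lie above those of every other list, of which the endothelial list is highest at 16.8 TPM. This order depends on how the lists were made up, with earlier results known. Acta2 and Tagln, which smooth muscle shares, are in the myofibroblast list only, and Postn is in both the fibroblast and the myofibroblast list. Pdgfrb, which pericytes share, is in the fibroblast list and not in the pericyte list.

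Most transcription factors of heart and mesenchyme development were detected. Of 40 such factors, 35 reached 1 TPM. Tcf21 was first, Tbx20, a T-box factor of heart development, in place 2 of the list at 144, 154 and 156 TPM, and the zinc finger gene Snai1 in place 3 at 121, 125 and 146 TPM, a range that Tbx20 overlapped. The cardiac factors Gata4 (79.0 ± 6.25 TPM), Gata6 (55.4 ± 5.01 TPM) and Hand2 (36.2 ± 0.645 TPM) were present together with the mesenchymal factors Prrx1 (68.3 ± 4.73 TPM), Osr1 (43.9 ± 2.15 TPM), Twist1 (28.3 ± 0.541 TPM) and Twist2 (26.7 ± 0.470 TPM). The muscle factor Mef2c had 8.15, 9.58 and 8.37 TPM. Other factors of heart muscle and chambers were near or below 1 TPM: Nkx2-5 had 0.92, 1.12 and 0.97 TPM, Tbx5 0.80, 1.01 and 0.60 TPM, Hand1 0.02 ± 0.0346 TPM, and Isl1 was at 0.

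Genes of the Hox clusters, which give position along the body axis, were low. Of 33 listed, 5 reached 1 TPM and none reached 10 TPM. Among them were Hoxb2 (6.67, 5.94 and 7.45 TPM), Hoxd8 (3.23, 3.68 and 3.18 TPM), Hoxb3 (2.18 ± 0.409 TPM) and Hoxb4 (1.34 ± 0.0115 TPM). The ranges of Hoxd8 and Hoxb3 did not overlap, and Hoxb2 lay above both in every library.

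Related genes were rarely used evenly. In 75 families of 2 or more listed paralogs, the leading gene held at least 90% of the family's summed TPM in 18, between 50% and 90% in 40, and less than 50% in 17. The same gene led in every library in 73 families, with the S100 proteins and the MEF2 factors as the exceptions. S100a11 (4214, 3884 and 4186 TPM) led in replicate 3 only, and S100a4 (4589, 3966 and 3487 TPM) in replicates 1 and 2. Mef2d (48.3 ± 3.10 TPM) and Mef2a (47.2 ± 3.39 TPM) did not differ beyond their spread. Ranked by estimated counts, which favour the longer paralog, 65 families had the same leader.

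**Figure D5:**
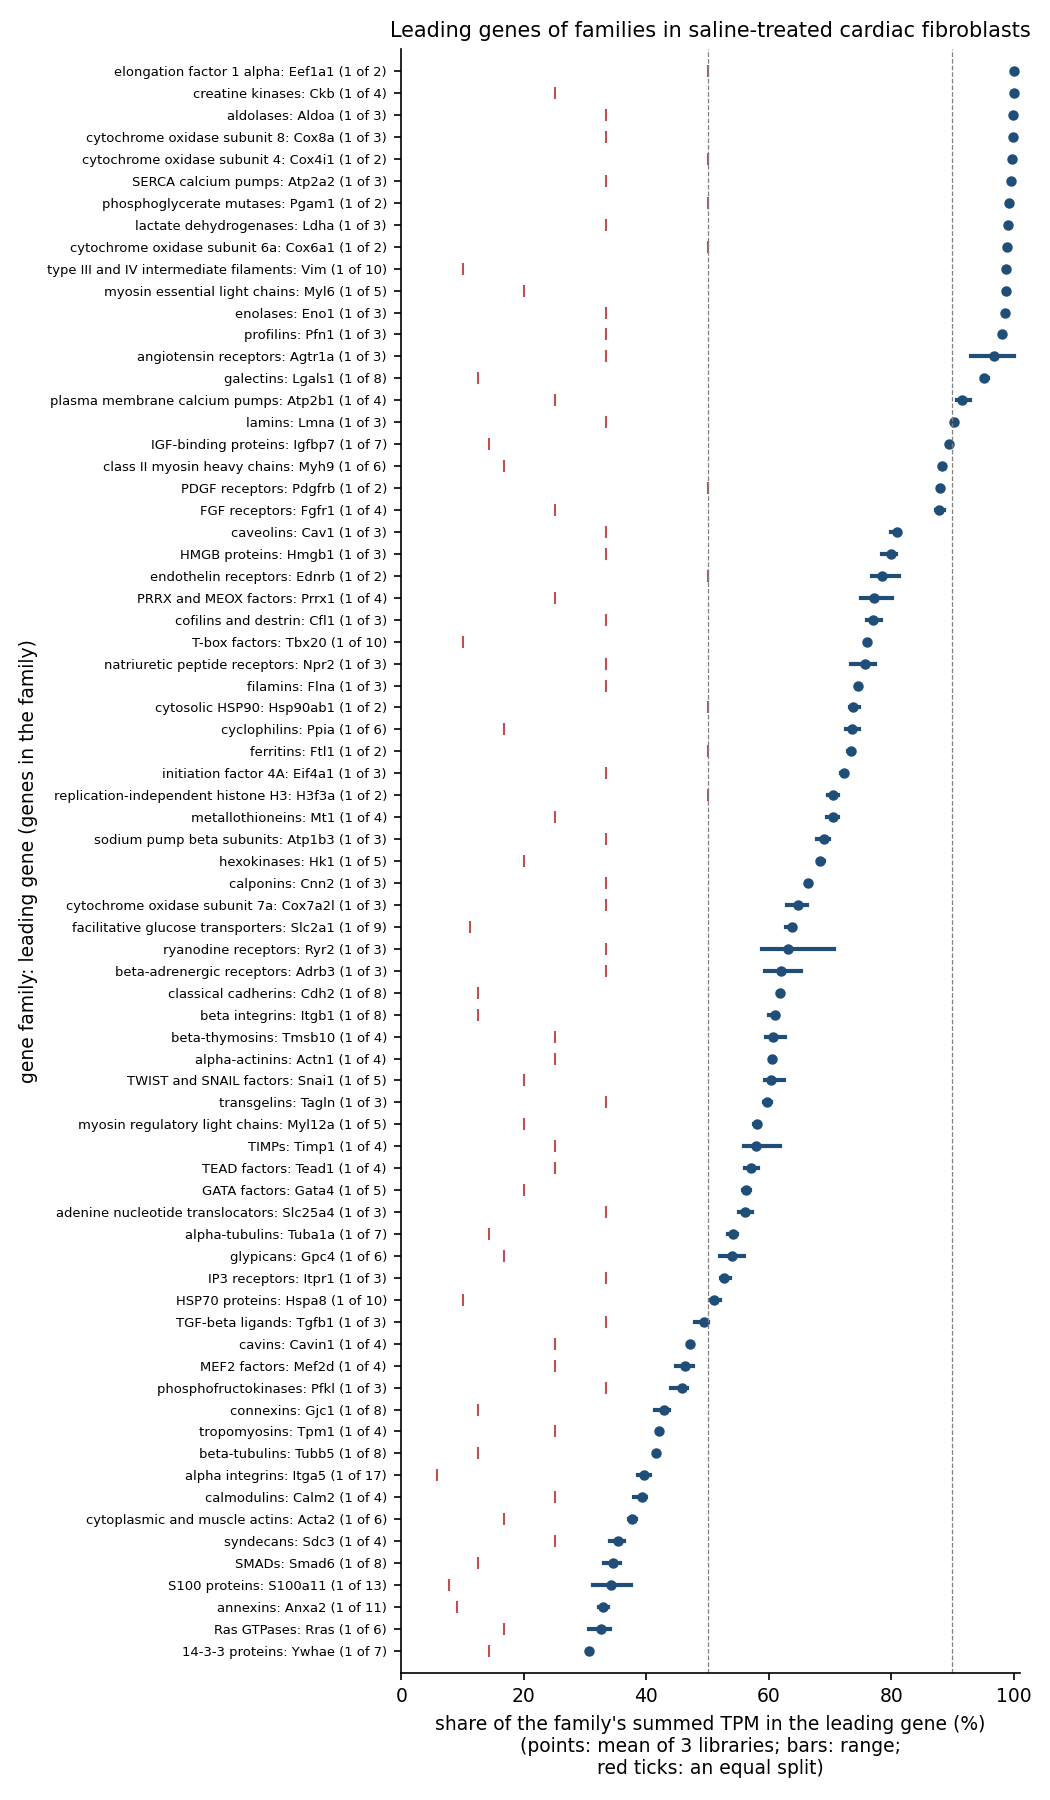
Share of the family's summed TPM held by its leading gene in 73 of the 75 families, in percent (points, mean of 3 control libraries; bars, lowest to highest), with the share an equal split would give as red ticks and dashed lines at 50% and 90%. Elongation factor 1 alpha, creatine kinases and aldolases lie at the right edge with a leader close to 100%, and 14-3-3 proteins, Ras GTPases and annexins at the left.

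Actins were the most abundant cytoskeletal family and were shared by 3 genes. Acta2 held 37.6% ± 0.604 of the actin TPM, Actg1 32.5% and Actb 29.5%, each in the same order in every library. Actg2, the enteric smooth muscle actin gene, had 66.3, 63.1 and 62.8 TPM, Actc1 8.48, 5.20 and 5.90 TPM, and Acta1, the skeletal muscle actin gene, 3.53 ± 0.833 TPM. Acta2 was 97.9 ± 3.73 times as abundant as Actg2.

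Actin gene promoters are known to be controlled by serum response factor, which binds a sequence known as the CArG box, and these cells were kept in serum. Stretches around a CArG box are shown for the actins in which the RefSeq window (build GRCm38.p6, 250 bases before to 50 after the start, 300 in all) held one, because genes with an alike box differed widely in level. They are written 5′ to 3′ on the gene's strand with the box in capitals.
Actg1, chr11:120348551-120348610, minus strand: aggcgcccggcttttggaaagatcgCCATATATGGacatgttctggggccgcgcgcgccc
Actc1, chr2:114052888-114052947, minus strand: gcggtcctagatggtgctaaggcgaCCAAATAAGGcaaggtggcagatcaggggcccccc
Acta1, chr8:123894814-123894873, minus strand: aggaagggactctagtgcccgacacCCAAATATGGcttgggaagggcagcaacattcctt
The box began 90 bases before the start in Actg1, 47 in Actc1 and 73 in Acta1. By level these genes had 5409, 6.53 and 3.53 TPM, so the box was found in the second most abundant actin gene and in the lowest 2. Each box found has 10 letters: CC, then only A or T, then GG. The window of Acta2 held no match of this form. A box that differs from it in a letter is not such a match, so this does not show that Acta2 lacks a CArG box. Windows of Actb and Actg2 were not analysed here. The motif, which reads the same on both strands, was found in 1.63% of 32851 promoter windows, in 1.61% of those of 9807 included genes and in 4% of those of 75 genes among the 100 most abundant.

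Non-muscle forms led several other contractile families, but not all. Among the transgelins, Tagln, which smooth muscle shares, held 59.6% and Tagln2 40.3%. Of the myosin regulatory light chains, Myl12a held 58.2% and the smooth muscle form Myl9 28.2%. Myh9 (655, 736 and 719 TPM), the heavy chain of non-muscle myosin IIA, held 88.2% of the class II myosin TPM, Myh10 10.3% and Myh11 1.195%. Tropomyosin was divided between Tpm1 (42.1%), Tpm4 (33.9%), Tpm3 (12.5%) and Tpm2 (11.5%), and values per gene do not separate muscle from non-muscle transcripts of a gene. Cnn2 and Cnn3 came before the smooth muscle calponin gene Cnn1 (62.3 ± 3.29 TPM), and Actn1 and Actn4 held nearly all alpha-actinin, with the muscle form Actn2 at 0.557 ± 0.160 TPM. Vimentin (Vim, 4725, 4846 and 4931 TPM) made up 98.7% of the type III and IV intermediate filament TPM.

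In energy metabolism, 1 gene held nearly all of several families. Ckb, the brain-type creatine kinase gene, had 503 ± 20.0 TPM with Ckm and Ckmt1 at 0. The aldolase gene Aldoa (1431 ± 55.9 TPM), Eno1 (1683 ± 32.4 TPM, 98.6% of enolases), Pgam1 (647 ± 13 TPM) and Ldha (1063 ± 22.2 TPM, 99.1% of lactate dehydrogenases against 0.926% for Ldhb) each dominated their families. Aldoa and Ldha encode the forms that are also the main ones in skeletal muscle, while the muscle forms Eno3 (16.7 TPM) and Pgam2 (4.94 TPM) were far below Eno1 and Pgam1. Hexokinase was divided between Hk1 (68.4%) and Hk2, the main form in muscle (29.0%), and phosphofructokinase between Pfkl (45.7%), Pfkp (40.6%) and the muscle form Pfkm (13.7%, 17.5 ± 1.04 TPM). The glucose transporter Slc2a1 had 67.7 ± 1.29 TPM, and the insulin-responsive Slc2a4 0.637 ± 0.133 TPM. Of the adenine nucleotide translocators, the heart and muscle form Slc25a4 (651 ± 14.4 TPM) lay above Slc25a5 (510 ± 26.5 TPM) in every library.

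Among the genes of calcium handling, the calcium pump gene Atp2a2 (201 ± 8.48 TPM) held 99.5% of its family. It encodes both the cardiac and the general form of the pump, which values per gene do not separate. All 3 inositol trisphosphate receptor genes were present, with Itpr1 at 23.9 ± 2.00 TPM, whereas each ryanodine receptor gene was below 1 TPM, Ryr2 being highest at 0.113 ± 0.0115 TPM. Among the connexins Gjc1 (26.4 ± 2.03 TPM) lay above Gja1 (17.1 ± 1.06 TPM), the main connexin of ventricular muscle.

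Adhesion genes were led by Itgb1 (1241 ± 57.4 TPM) and Itgb5 (764 ± 39.0 TPM) among the beta integrins and by the fibronectin receptor subunit Itga5 (230 ± 7.07 TPM) and Itgav (147 ± 10.4 TPM) among the alpha integrins. Itgb1 was 5.40 ± 0.199 times as abundant as Itga5. N-cadherin (Cdh2, 263 ± 15.4 TPM) held 61.8% of the classical cadherins and the mesenchymal Cdh11 20.2%, while E-cadherin (Cdh1) was at 0.0333 ± 0.0289 TPM. Among the syndecans, the library ranges of Sdc3 (254 ± 20.2 TPM) and Sdc2 (230 ± 11 TPM) met.

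Among growth factor receptors, 40 of 57 receptor tyrosine kinase genes reached 1 TPM, in a list drawn up after values had been seen. This count is near the share over all listed genes, which was 67.9%. Axl, which binds Gas6, led at 624, 665 and 659 TPM, Pdgfrb was second and the collagen receptor Ddr1 in place 3 at 154, 157 and 172 TPM. Ryk (129 ± 5.60 TPM) and Fgfr1 (128 ± 8.80 TPM) did not differ beyond their spread, and the collagen receptor Ddr2, often named as a fibroblast marker, followed at 89.8, 103 and 97.9 TPM. Insr had 9.54 ± 0.428 TPM against 42.4 ± 3.18 TPM for Igf1r, and Egfr 18.1 ± 1.51 TPM. Musk, Ntrk2, Erbb4 and Alk were among those below 0.2 TPM.

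Of the PDGF ligands, Pdgfa was highest at 51.5, 54.8 and 59.7 TPM, followed by Pdgfb (16.9 ± 1.39 TPM), Pdgfc (6.53 ± 0.483 TPM) and Pdgfd (3.73 ± 0.509 TPM), with no overlap between neighbours in this order. Transforming growth factor beta was divided between Tgfb1 (202 ± 13.4 TPM), Tgfb3 (155 ± 12.2 TPM) and Tgfb2 (52.3 ± 3.96 TPM). The inhibitory SMAD genes Smad6 (94.2 ± 7.48 TPM) and Smad7 (47.7 ± 3.83 TPM) lay above Smad3 (29.9 ± 2.17 TPM) and Smad2 (15.5 ± 0.239 TPM), which transmit that signal. Both also lay above Smad1 (31.0 ± 1.57 TPM), Smad5 (20.4 ± 0.551 TPM) and Smad9 (3.46 ± 0.640 TPM). These transmit signals of bone morphogenetic proteins, which Smad6 is mainly known to inhibit. Receptors for blood pressure hormones were low: Agtr1a had 1.93 ± 0.282 TPM with Agtr2 at 0, Ednrb 4.44 ± 0.626 TPM and Ednra 1.22 ± 0.251 TPM, and Adrb3, at 2.34 ± 0.315 TPM, led the beta-adrenergic receptors. The natriuretic peptide receptor Npr2 had 39.7 ± 1.49 TPM.

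Transcripts of cycling cells and of cell cycle inhibitors were present together. All 25 proliferation genes reached 1 TPM, with a median of 43.0 TPM. Ccnd2 led the D cyclins at 260, 287 and 282 TPM, before Ccnd3 (170 ± 9.47 TPM) and Ccnd1 (61.2 ± 1.22 TPM), and Ccnd2 was 4.51 ± 0.181 times Ccnd1. The mitotic genes Top2a (41.0 ± 0.852 TPM) and Mki67 (26.9 ± 2.13 TPM) were lower. Among the inhibitors, Cdkn1a, the p21 gene, had 371, 371 and 394 TPM, Cdkn1b 42.6 ± 2.05 TPM and Cdkn2a, which encodes p16 and p19ARF, 14.2 ± 0.254 TPM. All 13 genes of the senescence and arrest list reached 1 TPM, but these include Mki67 and the lamin gene Lmnb1 (42.6 ± 1.11 TPM), which are known to be lower in senescent cells. RNA of the whole culture does not say whether cycling and inhibitor transcripts were in the same cells.

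The files give values per gene and not per transcript, so no isoform could be assigned. The effective transcript length implied by each gene's count and FPKM may show where the authors' estimate drew on several transcripts, since a single transcript should give nearly the same length in each library. The FPKM values carry 2 decimals, and rounding alone moves the lengths of low genes. Of 10571 included genes with at least 100 mean counts, 5666, or 53.6%, had lengths within 0.5% of each other in the 3 libraries, and 746 differed by more than 5%. Col1a1 had 5881 bases in each library and Tcf21 1205. Acta2 had 1974, 1891 and 1959 bases, Tbx20 5955, 6246 and 5897, and Yap1 4028, 3883 and 3823. Acta2, and Tnc with 6598, 6698 and 6675 bases, each have only 1 transcript in the annotation used here, which may differ from that of the files. A varying length thus does not show that a gene has several known transcripts, and its cause was not tested. For fibronectin, whose transcript is spliced in several forms, the length was 8016, 8007 and 8007 bases, among annotated transcripts of 7410 to 8315 bases. For versican (Vcan) it was 9645, 9724 and 9794 bases, between the shortest annotated form of 2273 bases and the longest of 12427. Vcan has 5 annotated transcripts, and the length does not say which were present. Effective and annotated lengths are not the same measure: Col1a1, with 1 annotated transcript of 5930 bases, had 5881.

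Between libraries the median coefficient of variation of an included gene was 6.17% on the TPM scale and 5.05% for depth-scaled counts. The median expected counting error, which is computed from counts, was 4.16%. On the TPM scale the coefficient was 3.87% without replicate 1, 5.97% without replicate 2 and 5.71% without replicate 3. A median over so few libraries lies below the underlying spread, and more so for 2 libraries than for 3. For 3758 genes between 1 and 10 TPM the median was 9.79% on the TPM scale and 8.73% for counts, and their counting error 9.30%, above the value for counts. For 156 genes above 1000 TPM it was 5.31% on the TPM scale and 7.18% for counts, against a counting error of 0.759%. Only 337 genes had a coefficient of 25% or more on the TPM scale, and 329 of these lay below 10 TPM. Mgat2 had the smallest coefficient of variation among the 1717 genes of at least 100 TPM, at 130.9, 131.0 and 131.0 TPM. Its coefficient of 0.0265% lay below its counting error of 1.79%, so this smallest of many values does not mark Mgat2 as a stable gene.

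Among genes of at least 10 TPM, those whose coefficient on the TPM scale most exceeded the counting error are given in 2 groups. Some had a near-identical copy. Fam177a had 69.5, 38.6 and 63.1 TPM and Fam177a2 0, 28.3 and 7.13 TPM, so that one was high where the other was low, while their sum was 69.5, 66.9 and 70.2 TPM. Hmga1b (28.3, 10.8 and 9.49 TPM) stood beside Hmga1 (397, 391 and 430.5 TPM), and Srp54b (16.9, 25.3 and 30.0 TPM) beside Srp54a (63.3, 63.8 and 53.5 TPM) and Srp54c (144, 144 and 138 TPM). The sums of these copies varied by 4.58% and 2.72%, and the copies did not move in opposite directions throughout. For the other genes no copy was examined. The estimated counts of Lrrc17, Polr2i, Gm45927 and LOC100862446 were not whole, so their reads may be shared with other entries. Those of Ccl7, Ccl2, Rpl36 and Igf2 were whole. Lrrc17 had 52.2, 71.9 and 37.0 TPM, and the chemokine genes Ccl7 (59.4, 35.6 and 41.1 TPM) and Ccl2 (147, 102 and 102 TPM) were both highest in replicate 1, as were Rpl36 (1039, 844 and 670 TPM) and Polr2i (54.0, 39.0 and 33.7 TPM). Transcripts of Ccl7, Ccl2, Rpl36 and Polr2i are short, at effective lengths of 752, 757, 359 and 641 bases. In the class of 750 to 1000 bases, 78.8% of genes were higher in replicate 1. The median log2 ratio over the other libraries was 0.0919 there, a smaller shift than that of Ccl7 and Ccl2. What part length had in the values of these genes was not tested. The growth factor gene Igf2 was highest in replicate 3, at 8.57, 10.3 and 13.7 TPM. The uncharacterised Gm45927 (7.77, 15.6 and 15.4 TPM) and LOC100862446 (66.8, 73.1 and 108 TPM) complete the 12 most variable at this level.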

How the data were processed

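The members and gene lists were chosen with earlier results of these data known. Messenger RNA was captured with oligo(dT), reverse transcribed from random hexamers and read as DNA nanoballs, as the labels' protocols state. The submitters' processing notes name HISAT2 2.0.4, Bowtie2 2.2.5, RSEM 1.2.12, DESeq2 1.4.5 and build mm9 without roles. The gene annotation and the strandedness of counting: not given in the sources used here. Overlapping, antisense and near-identical genes may share reads. The authors deposited 1 table of 18059 genes per library, with estimated counts (not normalized, between 32.3% and 32.7% not whole in these libraries), FPKM values scaled by the authors to length and library depth, and TPM values scaled by the authors to a constant sum, per the file headers and values.

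All comparisons use the deposited TPM values of the 3 control libraries, with mean ± SD in Python 3.11.15 with pandas 2.3.3 and numpy 2.4.6. No test was run, since 1 group was described. Effective length is the count divided by FPKM and by the library total. Annotated transcript lengths come from GENCODE M21 and promoter windows from RefSeq, both on GRCm38, which is not the build of the files, so they were matched by name. Named genes are the 40 most abundant, members of described families and sets, the leading and absent markers, the 6 leading genes of each class, collagen and Hox genes of at least 1 TPM, the 12 with the most spread beyond counting error among genes of at least 10 TPM and 3 on each side of the threshold; other named genes, the receptor tyrosine kinase list, the sums of copies and the sum with pseudogenes were chosen after values were seen. Some genes that this rule takes are not reported here by name and stay in the counts. The spread calculation was tested on simulated data.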

Additional observations from a re-analysis of the deposited data

How the results depend on the processing

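No paired analysis was possible because 1 group is described, with no contrast and no test. Counting reads in place of TPM moved the shares most: the first 100 genes by counts held 26.8% of the counts and the first 100 by TPM, with 46 of them in common, 22.1%. By counts, matrix glycoproteins and proteoglycans held 7.70%, collagen chains 7.26%, ribosomal proteins 4.58%, actin cytoskeleton 4.48%, translation factors 2.59%, collagen processing enzymes 0.897%, glycolytic enzymes 0.883%, chaperones of the endoplasmic reticulum 0.693% and oxidative phosphorylation subunits 0.674%. The median coefficient of variation was 7.97% over all genes with a TPM above 0, and ran from 3.87% to 5.97% with 1 replicate left out. At 5 TPM the marker counts were 8 for macrophages, 3 for cardiomyocytes, 7 for epicardium, 2 for glia and 1 for fat cells, and at 0.5 TPM 1 lymphocyte marker (Cd8a) was counted. The number of included genes ran from 10051 (at 5 TPM) to 13016 (at 0.5 TPM). With 3 libraries, a mean without 1 of them cannot leave 1 SD of the mean over all, so that setting says little about single genes. Of 75 families, the share of the leading gene moved beyond 1 SD by counts in 57. Depth limits genes near 1 TPM, which rest on a median of 23 counts.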

Other observations

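Genes known as imprinted are expressed mainly from the copy of 1 parent, some of them only in certain tissues or transcripts, and many act on growth. Of 26 such genes 21 reached 1 TPM, beside 67.9% of all listed genes. Values per gene do not show which copy was expressed here. Gnas led at 1817, 1892 and 1933 TPM, before Dcn (582 ± 16.4 TPM, SD, n = 3), Grb10 (175 ± 14 TPM), Ndn (131 ± 1.82 TPM) and Igf2r (127 ± 8.50 TPM). The fetal growth factor gene Igf2 had 10.9 ± 2.62 TPM and Dlk1 2.88 ± 0.643 TPM, and Magel2 was at 0 in all 3 libraries. All 4 Y-linked genes looked for were present in every library, with Ddx3y at 23.0, 24.8 and 23.5 TPM, Eif2s3y at 23.6, 24.1 and 22.6 TPM, Uty at 7.21 ± 0.488 TPM and Kdm5d at 5.86 ± 0.571 TPM, so each library held RNA of male cells. These values do not give the share of such cells.

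Families of iron storage and signalling were divided between paralogs. Ftl1 was 2.84, 2.69 and 2.73 times as abundant as Fth1. Rras (207 ± 15.1 TPM) led the Ras GTPases, and Hras had 148 ± 2.12 TPM and Nras 61.9 ± 2.51 TPM. Ywhae (641 ± 8.18 TPM) led the 14-3-3 adaptor proteins with 30.6% of the family. Of the matrix proteases, named after their values were seen, the membrane-bound Mmp14 had 714 ± 51.0 TPM, Mmp2 175 ± 11.5 TPM and Mmp3 144 ± 10.1 TPM, while Mmp9 was at 0.0800 ± 0.0700 TPM.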
